A study of Mus musculus with 10 samples.

Results

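Primary keratinocytes of newborn FVB mice, titled as expressing A-C/EBP, were compared with differentiated keratinocytes whose titles do not name it. The measure was the mRNA level of every gene of the array with 1 gene symbol. The comparison used 6 of the 10 arrays of the series, chosen by their titles: 2 of A-C/EBP expressing differentiated keratinocytes and 4 of differentiated keratinocytes without 5-AZA. Both groups were kept for 2 days in 0.4 mM calcium, the signal that makes cultured keratinocytes stop dividing and differentiate. A-C/EBP came from a transgene active in keratinocytes under tetracycline control and was switched on by taking doxycycline away a day before the high calcium. The other 4 arrays, 2 of undifferentiated cells in 0.05 mM calcium and 2 of differentiated cells given the demethylating agent 5-AZA, entered only the estimate of the spread, apart from the undifferentiated levels quoted beside a few genes.

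A-C/EBP is a dominant negative: it carries the leucine zipper of the C/EBP family with an acidic stretch in place of the DNA-binding region, so that it pairs with C/EBP proteins and keeps them off DNA. C/EBP-alpha and C/EBP-beta, the members best known in epidermis, are found in cells that have left the basal layer and are linked there to growth arrest and to early differentiation. The study's introduction also credits C/EBP-beta with promoting the proliferation of keratinocytes. Elsewhere the family is known for switching on acute phase genes in liver, secretoglobins in airway and the fat cell programme. Differentiating keratinocytes replace basal keratins by suprabasal ones, then build a cornified envelope from loricrin, involucrin, small proline-rich and late cornified envelope proteins, and fill the space between cells with ceramides.

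The labels and methods did not state whether the control cultures carried the transgene or had seen doxycycline, so the transgene, the drug and the A-C/EBP protein cannot be told apart in this comparison. The A-C/EBP transcript itself was not analysed here, so that no measurement of the expressed protein checked the labels. Nothing in the labels said that arrays of a group came from separate cultures, so a p-value here reflects no more than how much these arrays varied. The keratinocyte marker genes lay high in both groups, with a mean level of 11.7 on both A-C/EBP arrays and of 11.3 to 11.7 on the controls.

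Before any comparison, 2 of the 6 arrays stood apart. The hybridization controls of A-C/EBP 2, bacterial transcripts added before hybridization, lay at 11.3 against 9.03 to 10.4 on the other 5 arrays, and differentiated 2 had a narrower range, its highest probe set at 13.7 against 14.4 to 14.5. Gaps of over 0.5 in log2 level separated the 2 A-C/EBP arrays at 1430 genes, A-C/EBP 1 from the controls at 1210, 2668, 2190 and 1214 in their order, and A-C/EBP 2 from them at 2171 to 2743. Between controls such gaps numbered from 374 (differentiated 1 and 4) to 1907 (differentiated 2 and 3). Xist, transcribed from the inactive X chromosome of females, lay at 6.54 and 9.93 on the A-C/EBP arrays and 5.88, 8.04, 7.25 and 6.70 on the controls. Eif2s3y, on the Y chromosome, lay at 5.90 and 3.74 on the A-C/EBP arrays and 6.03, 5.45, 5.55 and 5.42 on the controls, so that A-C/EBP 2 had the highest level of the first and the lowest of the second. The part of the animals' sex in the results was not tested. Excess of 3' over 5' signal for actin, a sign of RNA decay, was 0.19 and 0.37 on the A-C/EBP arrays and 0.093 to 0.36 on the controls (log2). For Gapdh the same excess was -0.11 on A-C/EBP 1, 0.098 on A-C/EBP 2 and -0.18 to -0.03 on the controls, so that A-C/EBP 2 was the only one of the 6 arrays above 0. The part of RNA quality in the results, the falls that lean on A-C/EBP 2 included, was not tested.

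With A-C/EBP, 271 of 18194 genes rose (1.49%) and 106 fell (0.583%), in limma with an adjusted p under 0.05. By size alone, 674 genes were higher by more than 0.5 on the log2 scale (3.7%) and 552 were lower (3.03%). Both A-C/EBP arrays lay above all 4 controls at 2290 genes (12.6%) and below them at 1602 (8.81%), and each gene that passed was among these. The median log2 difference over all genes was 0.01, the genes that rose had a median of 0.86 and those that fell one of -0.98. Of the former 101 rose by more than 1 and 19 by more than 2, and of the latter 51 and 10. Counts of list members below are to be read beside these shares over all genes. All values below are log2 RMA levels or differences of them, A-C/EBP minus controls, so that a difference of 1 is a doubling of signal.

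**Figure D1:**
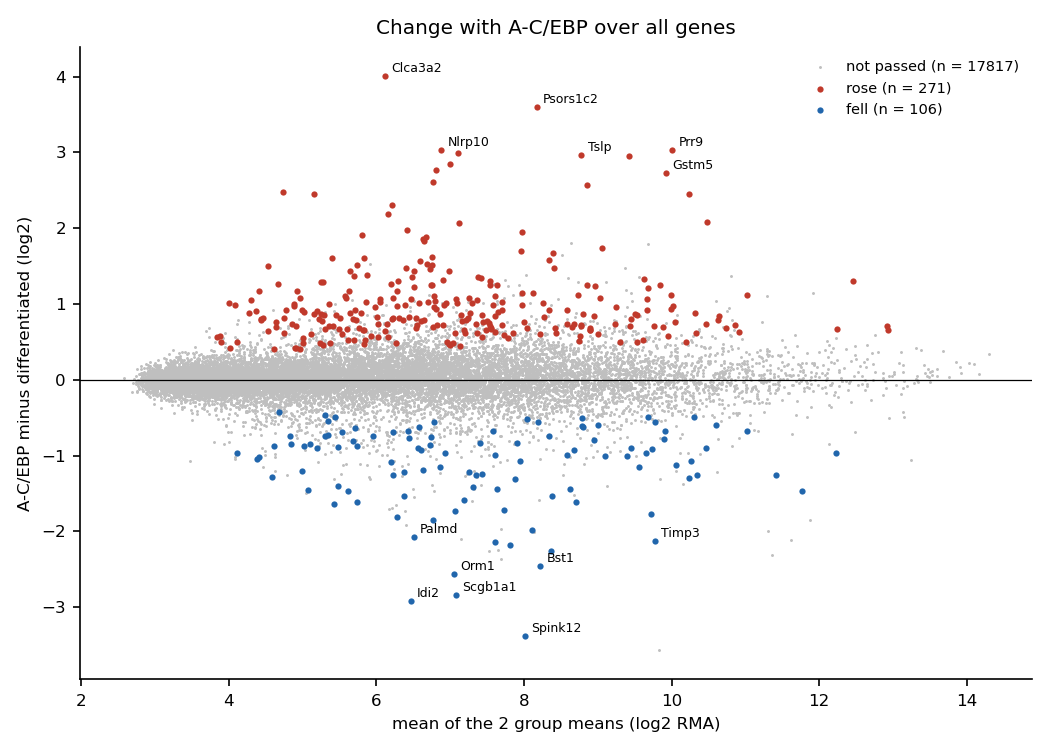
Log2 difference (A-C/EBP minus differentiated, vertical axis) against the mean of both group means (log2 RMA, horizontal axis), 1 point a gene, for 18194 genes. Red points rose (271) and blue points fell (106) in limma, Clca3a2 is highest at 4.01, and the lowest blue point is Spink12 at -3.38, under which 1 grey point, Akr1c18, did not pass at -3.57.

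A-C/EBP replicate 2 lay further from the controls than replicate 1 at 96 of the 106 genes that fell and at 165 of the 271 that rose. Over the genes that fell the median deviation from the control mean was -0.80 in replicate 1 and -1.19 in replicate 2. It was 0.82 and 0.89 over the genes that rose, so the medians were closer on that side. How close the arrays were gene by gene was not measured. Leaving out replicate 2 left 48 genes that rose and 8 that fell, of which 46 and 7 were among the original calls. Leaving out replicate 1 left 189 and 142, of which 134 and 72 were. When each of the 6 arrays was left out in turn, 35 of the rises and 4 of the falls passed every time. Without differentiated 1, 2 or 4 the rises numbered 188, 147 or 151 and the falls 54, 74 or 46. In the text that follows A-C/EBP 1 and 2 and differentiated 1 to 4 are the replicates as titled. The descriptions give the number 2 to both A-C/EBP samples, so the titles alone tell them apart.

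**Figure D2:**
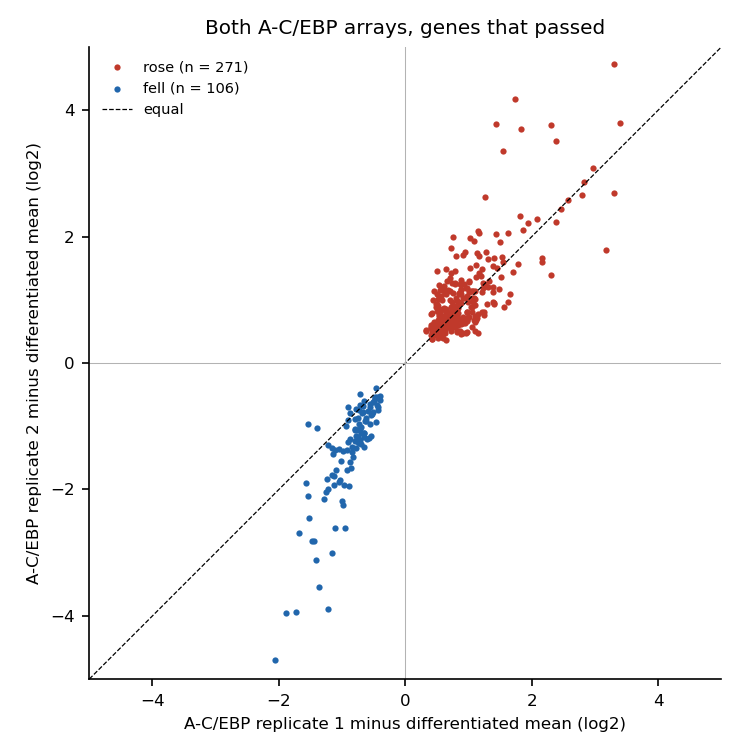
Deviation of A-C/EBP replicate 2 (vertical) against replicate 1 (horizontal) from the mean of the 4 controls, in log2, 1 point for each gene that passed (271 red, 106 blue), with the dashed line of equal deviation. Nearly all blue points (96 of 106) lie below the line, further from 0 in replicate 2, and the red points lie on both sides of it (165 further in replicate 2, 106 in replicate 1).

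The largest rise was that of Clca3a2, a calcium-activated chloride channel regulator, at 7.41 and 8.85 on the A-C/EBP arrays and 4.05, 4.04, 4.08 and 4.30 on the controls (4.01 ± 0.32 SE, adjusted p = 0.000491). Its neighbour Clca3a1 followed, at 5.48 and 7.29 on the A-C/EBP arrays and 3.998, 3.86, 3.91 and 3.96 on the controls (2.45 ± 0.36 SE, adjusted p = 0.0104). Both were dim on every control array, below the median of all probe sets there. So were Ifit1bl1, Bmp2, Trappc9, St3gal1, Nfkbie, Ctso and Casp4 among the other named rises, and of the named falls Serpina12, St8sia4 and St8sia6 were below it on both A-C/EBP arrays. On A-C/EBP 2 alone the falls Idi2, Scgb1a1, Orm1, Palmd, Lpl and S100g were below the median as well. Differences of genes this dim are not exact. Clca3a1 and Clca3a2 are similar in sequence, and their probe sets may share signal.

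Psors1c2, which lies beside the corneodesmosin gene in the psoriasis susceptibility region, was at 9.77 and 10.18 on the A-C/EBP arrays and 6.58, 6.25, 6.44 and 6.22 on the controls (3.60 ± 0.18 SE, adjusted p = 1.86e-05). The A-C/EBP arrays lay more than 3 log2 units above the controls and within 0.5 of each other. Gstm5, a glutathione transferase, was similar in tightness, at 11.35 and 11.23 on the A-C/EBP arrays and 8.70, 8.51, 8.39 and 8.65 on the controls (2.73 ± 0.12 SE, adjusted p = 1.41e-05), as was Adgre5, the adhesion receptor CD97, at 11.47 and 11.45 on the A-C/EBP arrays and 9.24, 8.98, 8.66 and 9.16 on the controls (2.45 ± 0.16 SE, adjusted p = 0.000165). Slc1a1, a glutamate and cysteine transporter, lay at 8.40 and 8.44 on the A-C/EBP arrays and 5.88, 5.65, 5.04 and 5.74 on the controls (2.84 ± 0.25 SE, adjusted p = 0.000699). In these 4 genes the replicates stood together and far from the controls, and leaving out any of the 6 arrays kept the calls.

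Other large rises differed more between the A-C/EBP arrays. Prr9, a proline-rich gene of the epidermal differentiation complex, lay at 10.80 and 12.26 on the A-C/EBP arrays and 8.46, 8.34, 8.56 and 8.63 on the controls (3.03 ± 0.32 SE, adjusted p = 0.00268). Mest, an imprinted gene of the hydrolase family, lay at 8.92 and 8.30 on the A-C/EBP arrays and 6.15, 5.28, 5.49 and 5.51 on the controls (3.00 ± 0.24 SE, adjusted p = 0.000491), with its undifferentiated levels at 7.20 and 6.89. Susd2, a sushi domain membrane protein, reached 7.27 and 9.13 on the A-C/EBP arrays and 5.63, 5.38, 5.29 and 5.42 on the controls (2.77 ± 0.39 SE, adjusted p = 0.00837), and Ifit1bl1, an interferon-induced gene, 6.67 and 5.28 on the A-C/EBP arrays and 3.51, 3.12, 3.68 and 3.65 on the controls (2.48 ± 0.31 SE, adjusted p = 0.0058). These 4 calls stood without any of the 6 arrays. Nlrp10, a regulator of innate immunity in skin, was nearly equal on both, at 8.34 and 8.45 on the A-C/EBP arrays and 5.63, 5.61, 4.59 and 5.63 on the controls (3.03 ± 0.36 SE, adjusted p = 0.00424), and the call was lost in 1 case, Nlrp10 (without A-C/EBP 2, adjusted p up to 0.0523).

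**Figure D3:**
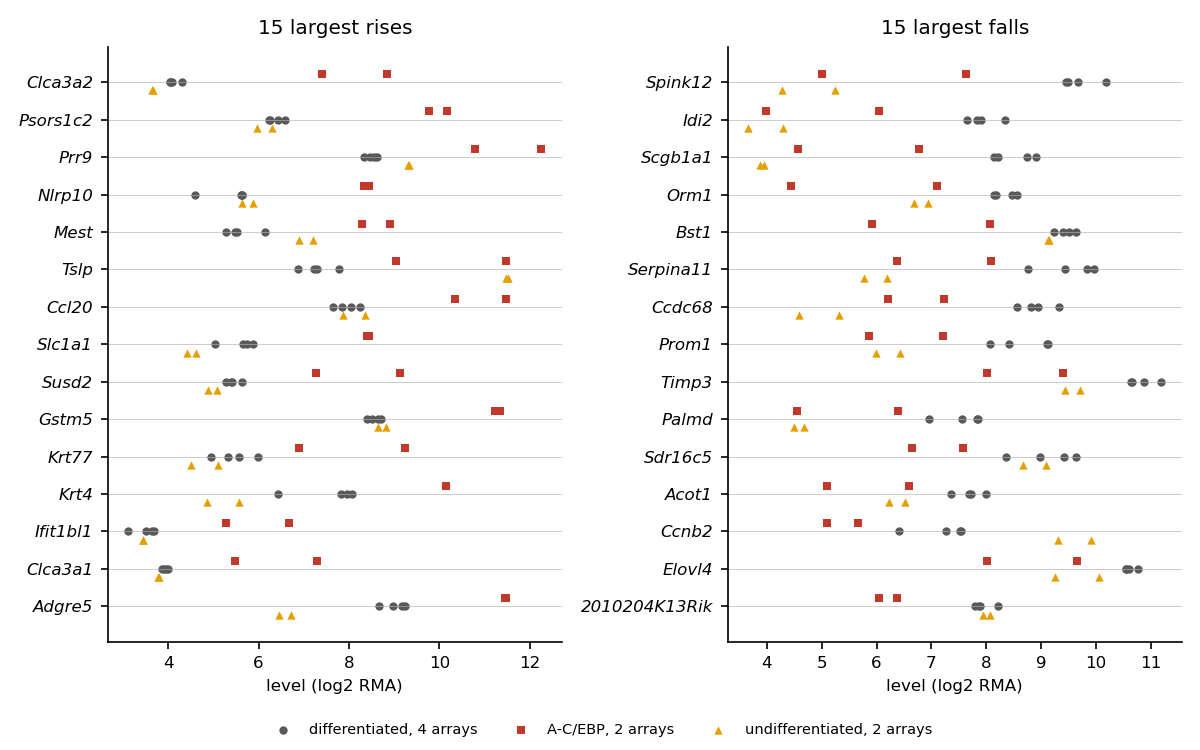
Levels (log2 RMA, horizontal axis) of the 15 genes with the largest rises (left) and falls (right), 1 row a gene, on the 2 A-C/EBP (red squares), 4 differentiated (grey circles) and 2 undifferentiated arrays (orange triangles). Red and grey points do not overlap in any row, which the choice of genes fixed, and the red squares lie apart in some, as for Spink12 (7.64 and 4.996).

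Among the falls, Spink12, a Kazal-type protease inhibitor, came first, at 7.64 and 4.996 on the A-C/EBP arrays and 9.46, 9.49, 10.19 and 9.66 on the controls (-3.38 ± 0.62 SE, adjusted p = 0.0259). Idi2, an isopentenyl diphosphate isomerase, lay at 6.04 and 3.98 on the A-C/EBP arrays and 7.82, 7.64, 8.33 and 7.91 on the controls (-2.92 ± 0.46 SE, adjusted p = 0.0142), and its call held without any of the 6 arrays, as did that of 2010204K13Rik, at 6.37 and 6.04 on the A-C/EBP arrays and 8.21, 7.87, 7.89 and 7.79 on the controls (-1.74 ± 0.16 SE, adjusted p = 0.000812). In Spink12 and Idi2 the second A-C/EBP array lay over 2 log2 units below the first. Undifferentiated cells had levels of 5.24 and 4.28 for Spink12 and of 4.30 and 3.66 for Idi2.

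Timp3, an inhibitor of matrix metalloproteases, fell from a high level, at 9.39 and 8.02 on the A-C/EBP arrays and 10.63, 10.65, 10.88 and 11.19 on the controls (-2.13 ± 0.35 SE, adjusted p = 0.0167). Elovl4, which makes the very long fatty acids of skin ceramides, lay at 9.66 and 8.01 on the A-C/EBP arrays and 10.61, 10.54, 10.54 and 10.77 on the controls (-1.78 ± 0.37 SE, adjusted p = 0.0423). Bst1, an ADP-ribosyl cyclase, lay at 8.07 and 5.91 on the A-C/EBP arrays and 9.40, 9.24, 9.63 and 9.51 on the controls (-2.46 ± 0.44 SE, adjusted p = 0.0233), and Prom1, a membrane protein also called CD133, at 7.20 and 5.87 on the A-C/EBP arrays and 8.42, 8.08, 9.10 and 9.12 on the controls (-2.14 ± 0.39 SE, adjusted p = 0.0238). The remaining falls among the 15 largest were Serpina11 (-2.26), Ccdc68 (-2.19), Palmd (-2.08), Sdr16c5 (-1.98), Acot1 (-1.86), and Scgb1a1, Orm1 and Ccnb2, described with their groups. Most of these calls leaned on 1 array or another: those lost were Spink12 (without A-C/EBP 2 or any control, adjusted p up to 0.168), Timp3 (without A-C/EBP 2, adjusted p up to 0.128), Elovl4 (without A-C/EBP 2 or any control, adjusted p up to 0.235), Bst1 (without any control, adjusted p up to 0.0594), Prom1 (without A-C/EBP 2 or differentiated 4, adjusted p up to 0.229), Serpina11 (without A-C/EBP 2 or differentiated 2, 3 or 4, adjusted p up to 0.269), Ccdc68 (without A-C/EBP 2, adjusted p up to 0.0909), Palmd (without A-C/EBP 2 or differentiated 1, 3 or 4, adjusted p up to 0.234), Sdr16c5 (without A-C/EBP 2 or differentiated 4, adjusted p up to 0.228) and Acot1 (without A-C/EBP 2 or any control, adjusted p up to 0.228).

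C/EBP proteins bind as dimers to sites of the kind TTGCGCAA, often with other bases in the middle. The window from 250 bases before to 50 after the start of each gene, taken from RefSeq on the GRCm38.p6 build, was available for 14453 of the genes tested, for 212 that rose and for 76 that fell. Some genes had several windows, and a gene counted once if any of them held a match. The perfect palindrome TTGCGCAA was found for 0.27% of all genes with a window, for 1 of the 76 that fell and for 0 of the 212 that rose. TTGCNNAA, searched on both strands and including the palindrome, was in 10.8% of all genes, 13.7% of those that rose and 11.8% of those that fell. TGACTCA, the AP-1 element, was in 5.33%, 10.4% and 5.26% in the same order. TGACGTCA, the CRE bound by CREB, was in 2.92%, 1.42% and 1.32%, and CCAAT, an element of many start sites, in 42%, 38.7% and 56.6%. These are counts of letters in a short window, with no test and no measure of binding.

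Ptgs2, cyclooxygenase 2, was the gene with the palindrome, chosen for display after this was seen. The other windows shown hold TTGCNNAA and belong to 2 of the largest rises and to 3 of the largest falls that had one. Genes of 1 chromosome were left out of this choice. Capitals mark each TTGCNNAA or its reverse complement, and each line runs 5′ to 3′ along the gene.
Ptgs2 (fell, chr1:150099781-150100080, + strand): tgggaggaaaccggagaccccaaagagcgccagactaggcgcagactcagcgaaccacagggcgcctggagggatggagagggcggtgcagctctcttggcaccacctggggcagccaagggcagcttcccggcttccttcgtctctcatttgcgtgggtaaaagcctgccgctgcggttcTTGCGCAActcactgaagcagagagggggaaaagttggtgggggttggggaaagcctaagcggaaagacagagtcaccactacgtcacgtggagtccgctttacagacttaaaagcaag
Mest (rose, chr6:30733256-30733555, + strand, 1 of 3 windows): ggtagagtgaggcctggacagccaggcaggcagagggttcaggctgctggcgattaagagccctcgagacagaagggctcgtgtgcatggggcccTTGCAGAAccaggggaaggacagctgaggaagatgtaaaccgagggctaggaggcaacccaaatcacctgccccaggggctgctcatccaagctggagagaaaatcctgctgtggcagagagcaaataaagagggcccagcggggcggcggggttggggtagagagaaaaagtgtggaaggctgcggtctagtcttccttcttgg
Krt77 (rose, chr15:101869656-101869955, - strand): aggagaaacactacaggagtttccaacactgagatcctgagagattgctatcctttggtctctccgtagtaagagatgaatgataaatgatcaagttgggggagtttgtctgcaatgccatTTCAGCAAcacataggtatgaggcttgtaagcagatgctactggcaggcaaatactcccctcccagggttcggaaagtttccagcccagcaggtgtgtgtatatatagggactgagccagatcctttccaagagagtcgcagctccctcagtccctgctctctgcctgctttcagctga
Acot1 (fell, chr12:84009252-84009551, + strand): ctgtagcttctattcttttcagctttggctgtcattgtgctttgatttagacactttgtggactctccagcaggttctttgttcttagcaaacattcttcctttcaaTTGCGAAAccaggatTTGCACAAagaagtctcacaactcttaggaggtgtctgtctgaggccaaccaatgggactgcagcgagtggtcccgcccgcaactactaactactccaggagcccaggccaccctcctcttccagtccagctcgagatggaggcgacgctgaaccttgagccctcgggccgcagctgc
2010204K13Rik (fell, chrX:7420998-7421297, - strand, 1 of 2 windows): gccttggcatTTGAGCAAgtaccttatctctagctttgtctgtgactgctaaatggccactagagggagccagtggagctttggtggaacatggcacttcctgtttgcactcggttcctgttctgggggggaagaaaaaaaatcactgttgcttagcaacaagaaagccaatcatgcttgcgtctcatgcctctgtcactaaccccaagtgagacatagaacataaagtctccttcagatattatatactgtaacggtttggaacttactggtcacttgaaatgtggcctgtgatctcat
Copz2 (fell, chr11:96849626-96849925, + strand): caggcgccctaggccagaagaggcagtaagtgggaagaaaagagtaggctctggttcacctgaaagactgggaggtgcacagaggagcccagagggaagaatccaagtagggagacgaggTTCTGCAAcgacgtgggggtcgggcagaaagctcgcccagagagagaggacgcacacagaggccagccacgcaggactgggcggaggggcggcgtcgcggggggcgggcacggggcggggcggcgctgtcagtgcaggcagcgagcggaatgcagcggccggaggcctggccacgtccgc
The first base of the match lay at position -69 from the start in Ptgs2, and Acot1 had 2 matches. Ptgs2 itself fell, at 9.43 and 10.0004 on the A-C/EBP arrays and 11.18, 11.19, 10.54 and 10.96 on the controls (-1.25 ± 0.24 SE, adjusted p = 0.0284). Copz2, a coatomer subunit, lay at 7.32 and 6.50 on the A-C/EBP arrays and 8.25, 8.12, 8.66 and 8.38 on the controls (-1.44 ± 0.26 SE, adjusted p = 0.0233). Both calls ended on leaving out single arrays: Ptgs2 (without A-C/EBP 1 or 2 or differentiated 1, 2 or 4, adjusted p up to 0.154) and Copz2 (without A-C/EBP 2 or differentiated 4, adjusted p up to 0.235).

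None of the 5 measured C/EBP family genes passed, and their median was 0.24. Cebpa, the gene of C/EBP-alpha, lay at 9.12 and 8.85 on the A-C/EBP arrays and 8.17, 7.68, 8.27 and 8.62 on the controls (0.80 ± 0.23 SE, adjusted p = 0.125), with both A-C/EBP arrays above every control. Cebpb, the gene of C/EBP-beta, lay at 10.40 and 10.56 on the A-C/EBP arrays and 10.06, 10.28, 9.84 and 10.76 on the controls (0.24 ± 0.31 SE, adjusted p = 0.85) and overlapped the controls. Cebpd differed by 0.33 with an adjusted p of 0.294.

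Other families of leucine zipper factors gave no call either, 0 of 15 AP-1 and small Maf genes (median 0.05) and 0 of 17 CREB and ATF genes (median 0.07). Atf3, induced by stress, was at 7.61 and 8.65 on the A-C/EBP arrays and 6.97, 6.87, 7.41 and 7.25 on the controls (1.01 ± 0.25 SE, adjusted p = 0.0768). Atf5 differed by -0.97 (adjusted p = 0.143) and Atf6 by 0.37 (0.212). Jun, Junb, Jund, Fos, Fosl2 and Creb1 lay within 0.25 of the controls (-0.09, 0.19, 0.15, -0.24, -0.15 and -0.11), all with adjusted p of 0.698 or more. Of 37 other regulators of epidermis only Elf5, an Ets factor of differentiating epithelia, rose, at 6.85 and 7.31 on the A-C/EBP arrays and 6.23, 6.25, 5.80 and 5.99 on the controls (1.02 ± 0.18 SE, adjusted p = 0.021). The call was lost for Elf5 (without A-C/EBP 2 or differentiated 4, adjusted p up to 0.232).

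Of 42 genes that C/EBP proteins are known to drive in liver, lung, fat and myeloid cells, 3 fell and 0 rose (median -0.02). The shares over all genes were 0.583% that fell and 1.49% that rose. Scgb1a1, the secretoglobin of airway club cells, lay at 6.77 and 4.56 on the A-C/EBP arrays and 8.90, 8.75, 8.22 and 8.14 on the controls (-2.84 ± 0.49 SE, adjusted p = 0.0206). Orm1, the acute phase protein orosomucoid, lay at 7.10 and 4.44 on the A-C/EBP arrays and 8.14, 8.46, 8.55 and 8.17 on the controls (-2.56 ± 0.54 SE, adjusted p = 0.0423). Lpl, lipoprotein lipase, lay at 4.996 and 4.22 on the A-C/EBP arrays and 5.96, 6.27, 6.43 and 6.34 on the controls (-1.64 ± 0.22 SE, adjusted p = 0.00697). All 3 lay lower on both A-C/EBP arrays, but the drop to A-C/EBP 2 was the larger in each, and the calls ended as follows: Scgb1a1 (without A-C/EBP 2 or differentiated 1 or 2, adjusted p up to 0.0831), Orm1 (without any control, adjusted p up to 0.102) and Lpl (without A-C/EBP 2, adjusted p up to 0.0547). Akr1c18, a steroid dehydrogenase of the NRF2 list and not of this one, named after its values were seen, had the lowest difference of all genes yet did not pass, at 10.35 and 5.75 on the A-C/EBP arrays and 11.66, 11.70, 11.58 and 11.52 on the controls (-3.57 ± 0.91 SE, adjusted p = 0.0843).

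Of 19 late cornified envelope genes, whose products are laid down last, 14 were lower by more than 0.5, none of which passed, and 2 rose. The shares over all genes were 3.03% and 1.49%. The median of the list was -0.71 against 0.01 over all genes. With A-C/EBP 1 alone the median was -0.89 and with A-C/EBP 2 alone -0.55. Lce1f lay at 7.81 and 6.46 on the A-C/EBP arrays and 8.93, 8.81, 9.64 and 9.20 on the controls (-2.02 ± 0.51 SE, adjusted p = 0.0821), named after its values were seen. Lce1m, of the same cluster, went the other way with Prr9, at 8.26 and 9.64 on the A-C/EBP arrays and 6.96, 6.95, 7.39 and 6.73 on the controls (1.94 ± 0.41 SE, adjusted p = 0.0434). Its call ended: Lce1m (without A-C/EBP 2 or any control, adjusted p up to 0.403). Lce genes resemble each other, and their probe sets may share signal.

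Small proline-rich genes, early envelope building blocks, gave 0 calls among 9 (median 0.19), with Sprr3 at 1.47 (0.225), Sprr1b at -0.69 (0.185) and Sprr1a at 0.34 (0.664). Sprr1a was the brightest of all probe sets on both A-C/EBP arrays (14.42 and 14.51) and close to the brightest on each control, so its difference is not exact. Of 29 scaffold proteins and transglutaminases 3 rose and 1 fell (median 0.05). Beside Psors1c2 the rises were Cdsn, the corneodesmosin that glues corneocytes, at 13.13 and 13.10 on the A-C/EBP arrays and 11.89, 11.37, 11.79 and 12.18 on the controls (1.31 ± 0.22 SE, adjusted p = 0.0186), and Ppl, the plakin periplakin, at 11.57 and 11.60 on the A-C/EBP arrays and 10.65, 10.36, 10.43 and 10.39 on the controls (1.12 ± 0.13 SE, adjusted p = 0.00369). Cnfn, cornifelin, fell, at 11.36 and 10.71 on the A-C/EBP arrays and 12.79, 12.61, 12.31 and 12.28 on the controls (-1.46 ± 0.31 SE, adjusted p = 0.0425). Ivl, involucrin, lay at 11.59 and 11.63 on the A-C/EBP arrays and 11.11, 10.78, 10.72 and 10.79 on the controls (0.76 ± 0.17 SE, adjusted p = 0.0577), just short of the threshold with no overlap between groups, and Lor, loricrin, differed by -0.53 (0.57). Ppl passed without any of the 6 arrays, and the calls lost were Cdsn (without A-C/EBP 1 or 2, adjusted p up to 0.156) and Cnfn (without any single one of the 6 arrays, adjusted p up to 0.401).

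Among 12 suprabasal and late keratins 2 rose, and the median was 0.21. Krt77, found in sweat ducts and embryonic epidermis, was at 6.90 and 9.25 on the A-C/EBP arrays and 5.33, 4.95, 5.56 and 5.98 on the controls (2.61 ± 0.52 SE, adjusted p = 0.0351). Krt4, of mucosal epithelia, was at 10.14 and 10.16 on the A-C/EBP arrays and 7.97, 8.07, 6.43 and 7.82 on the controls (2.58 ± 0.49 SE, adjusted p = 0.0299). Both A-C/EBP arrays of Krt4 were nearly equal, whereas for Krt77 the second was over 2 units above the first. Krt1, the main spinous keratin, lay at 10.21 and 10.95 on the A-C/EBP arrays and 9.17, 8.87, 8.38 and 8.75 on the controls (1.79 ± 0.42 SE, adjusted p = 0.0642) and its partner Krt10 at 8.66 and 9.33 on the A-C/EBP arrays and 8.10, 7.97, 8.03 and 7.60 on the controls (1.07 ± 0.41 SE, adjusted p = 0.263). Neither passed, with both A-C/EBP arrays above every control. The calls of the other pair ended on leaving out arrays: Krt77 (without A-C/EBP 2 or any control, adjusted p up to 0.173) and Krt4 (without A-C/EBP 1 or 2 or differentiated 2 or 4, adjusted p up to 0.223).

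Basal, wound and simple epithelial keratins gave 2 rises of 12 (median 0.24). Krt15, a keratin of basal and bulge cells, lay at 8.02 and 7.10 on the A-C/EBP arrays and 5.82, 5.93, 5.39 and 5.67 on the controls (1.85 ± 0.23 SE, adjusted p = 0.00482), and the call stood without any of the 6 arrays. Krt16, induced by wounding, lay at 13.09 and 13.47 on the A-C/EBP arrays and 12.64, 12.29, 12.71 and 12.65 on the controls (0.71 ± 0.15 SE, adjusted p = 0.0455). Krt6b, its wound partner, lay at 11.87 and 10.02 on the A-C/EBP arrays and 12.98, 12.84, 12.79 and 12.59 on the controls (-1.85 ± 0.42 SE, adjusted p = 0.0562), opposite in sign, not called, and named after its values were seen. Of 20 hair keratins Krt32 rose (0.88 ± 0.14 SE, adjusted p = 0.0153). Lost calls were Krt16 (without A-C/EBP 2 or any control, adjusted p up to 0.426) and Krt32 (without A-C/EBP 1, adjusted p up to 0.0745).

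Genes that tie basal cells to the basement membrane gave 0 calls among 25, with 9 of them higher by more than 0.5 and a median of 0.26. Of all genes 3.7% were higher by more than 0.5. Itga6, the alpha-6 integrin of hemidesmosomes, lay at 9.72 and 10.23 on the A-C/EBP arrays and 9.10, 9.09, 8.05 and 8.92 on the controls (1.18 ± 0.34 SE, adjusted p = 0.134), and Lamb3, a laminin chain of the basement membrane, at 9.97 and 10.07 on the A-C/EBP arrays and 9.25, 8.64, 8.14 and 9.49 on the controls (1.14 ± 0.39 SE, adjusted p = 0.211), both named after their values were seen. Dst, the hemidesmosomal plakin dystonin, differed by 0.61 (0.0781) and Plec, plectin, by 0.65 (0.0972). Differentiated 3 was the lowest control for all 4 of these genes.

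Cell junction genes gave few calls. Of 23 genes of desmosomes and adherens junctions 0 passed (median 0.19): Cdh1, E-cadherin, differed by 0.51 (0.136), Dsc1, of the upper layers, by -1.11 (0.201), Dsc2 by -0.21 (0.741) and Dsc3 by -0.20 (0.8). Of 32 tight and gap junction genes only Tjp3, the scaffold ZO-3, rose (median 0.04). It lay at 7.43 and 7.28 on the A-C/EBP arrays and 5.28, 5.16, 4.87 and 4.90 on the controls (2.31 ± 0.16 SE, adjusted p = 0.000237), with the A-C/EBP arrays close together and the call unbroken by leaving out any of the 6 arrays. Cldn4, a claudin, differed by 0.17 (0.937).

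Of 46 kallikreins, protease inhibitors and other epidermal proteases, which govern shedding of the horny layer, 1 rose and 3 fell (median -0.04). The 3 falls were Spink12, Serpina11 and Serpina12, the serpin vaspin, which lay at 4.55 and 4.23 on the A-C/EBP arrays and 5.30, 5.41, 5.86 and 5.78 on the controls (-1.20 ± 0.19 SE, adjusted p = 0.0155). Serpina12 had 2 probe sets with differences of -2.15 and -0.25. The rise was Ctsh, cathepsin H, at 8.98 and 9.51 on the A-C/EBP arrays and 8.29, 8.27, 8.54 and 8.38 on the controls (0.87 ± 0.14 SE, adjusted p = 0.0172). Both of these calls rested on 1 array: Serpina12 (without A-C/EBP 2, adjusted p up to 0.178) and Ctsh (without A-C/EBP 2, adjusted p up to 0.155). Slpi, a leukocyte protease inhibitor named after its values were seen, lay at 11.69 and 8.94 on the A-C/EBP arrays and 12.32, 12.31, 12.23 and 12.37 on the controls (-1.99 ± 0.56 SE, adjusted p = 0.118), closer to the controls on A-C/EBP 1 and far below on A-C/EBP 2. Of 25 metalloproteases and plasminogen genes Timp3 alone passed (median -0.05), and of 6 stefins and cystatins none did (median 0.07), Cst3 differing by 0.37 and Cst6 by -0.42.

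**Figure D4:**
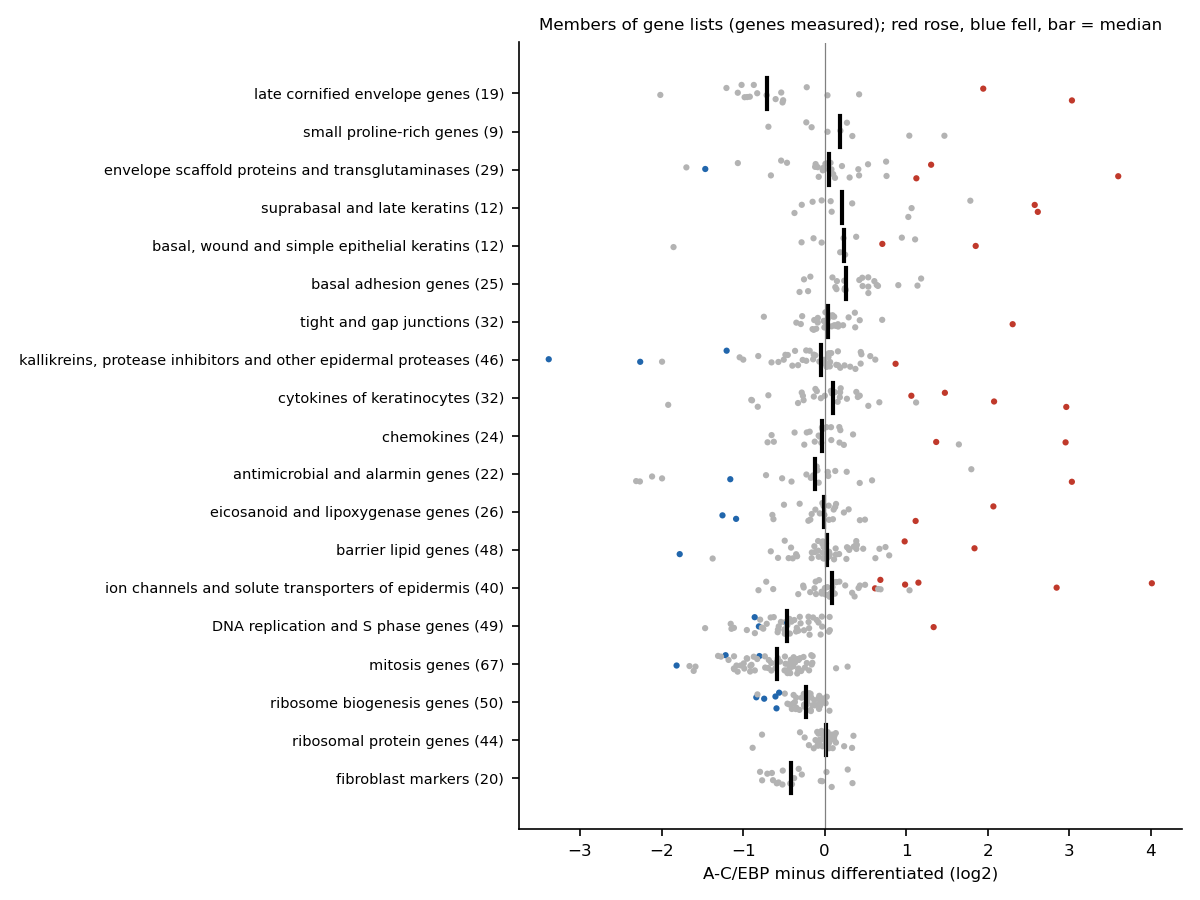
Log2 differences (A-C/EBP minus differentiated, horizontal axis) of the members of 19 gene lists, 1 point a gene with random vertical scatter, the number measured in parentheses and the black bar at the median. Red points rose and blue points fell, and the late cornified envelope (-0.71), mitosis (-0.58) and S phase (-0.46) medians lie furthest from 0.

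Of 32 keratinocyte cytokines 4 rose and 0 fell (median 0.11), where 1.49% of all genes rose. Without A-C/EBP 2 the list had 0 rises and a median of -0.0075, and without A-C/EBP 1 it had 4 and a median of 0.21. Tslp, which drives type 2 inflammation in skin, lay at 9.04 and 11.48 on the A-C/EBP arrays and 7.24, 7.79, 7.30 and 6.86 on the controls (2.96 ± 0.54 SE, adjusted p = 0.0238), and at 11.48 and 11.53 in undifferentiated cells. Il33, an alarmin stored in nuclei, lay at 11.38 and 11.65 on the A-C/EBP arrays and 9.88, 9.54, 8.77 and 9.58 on the controls (2.08 ± 0.29 SE, adjusted p = 0.00886). Il1rn, the antagonist of the interleukin 1 receptor, lay at 8.98 and 9.32 on the A-C/EBP arrays and 7.67, 7.68, 7.62 and 7.74 on the controls (1.47 ± 0.17 SE, adjusted p = 0.00369). These rose on both A-C/EBP arrays, Tslp far more on the second. Tnf, tumour necrosis factor, lay at 6.59 and 7.42 on the A-C/EBP arrays and 5.95, 6.05, 5.77 and 5.999 on the controls (1.06 ± 0.21 SE, adjusted p = 0.0313). Il15, which sustains lymphocytes, lay at 5.90 and 4.98 on the A-C/EBP arrays and 6.94, 6.35, 8.50 and 7.64 on the controls (-1.92 ± 0.54 SE, adjusted p = 0.121) and Il1b differed by -0.10 (0.89), the former named after its values were seen. Left out singly, arrays ended these calls: Tslp (without A-C/EBP 2 or differentiated 1 or 4, adjusted p up to 0.0875), Il33 (without A-C/EBP 2, adjusted p up to 0.107), Il1rn (without A-C/EBP 2, adjusted p up to 0.0505) and Tnf (without A-C/EBP 2 or any control, adjusted p up to 0.232).

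Of 24 chemokines 2 rose (median -0.03). Ccl20, which attracts Langerhans cells and Th17 cells, lay at 10.34 and 11.47 on the A-C/EBP arrays and 7.84, 8.24, 7.66 and 8.06 on the controls (2.95 ± 0.28 SE, adjusted p = 0.00122), a call that held without any of the 6 arrays. Cxcl2, a neutrophil attractant, lay at 5.76 and 7.001 on the A-C/EBP arrays and 4.90, 5.06, 4.96 and 5.14 on the controls (1.37 ± 0.28 SE, adjusted p = 0.0411). The call was lost for Cxcl2 (without A-C/EBP 2 or any control, adjusted p up to 0.235). Cxcl1, its near relative, lay at 8.60 and 10.08 on the A-C/EBP arrays and 7.82, 8.27, 7.13 and 7.57 on the controls (1.65 ± 0.39 SE, adjusted p = 0.0686), named after its values were seen.

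Among 22 antimicrobial and alarmin genes Nlrp10 rose and Bpifc, a lipid-binding BPI relative, fell, at 9.30 and 8.65 on the A-C/EBP arrays and 10.08, 9.93, 10.28 and 10.23 on the controls (-1.16 ± 0.20 SE, adjusted p = 0.0198). The list median was -0.12. S100a8, a subunit of the alarmin calprotectin, lay at 11.67 and 8.74 on the A-C/EBP arrays and 12.04, 12.52, 13.03 and 12.49 on the controls (-2.31 ± 0.65 SE, adjusted p = 0.123). Its partner S100a9 lay at 12.14 and 8.99 on the A-C/EBP arrays and 12.59, 12.65, 12.88 and 12.60 on the controls (-2.12 ± 0.66 SE, adjusted p = 0.16). Neither passed, since A-C/EBP 1 was close to the controls and A-C/EBP 2 was far below, and both were named after their values were seen. Of 12 other S100 genes S100a13, a partner in export of proteins without a signal peptide, rose (0.72 ± 0.14 SE, adjusted p = 0.032) and S100g, the calcium carrier calbindin-D9k, fell (-0.87 ± 0.17 SE, adjusted p = 0.0352). Lost calls were Bpifc (without A-C/EBP 2 or differentiated 4, adjusted p up to 0.196), S100a13 (without A-C/EBP 1 or differentiated 2, 3 or 4, adjusted p up to 0.159) and S100g (without A-C/EBP 1 or 2 or differentiated 2, 3 or 4, adjusted p up to 0.339).

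Of 26 prostaglandin and lipoxygenase genes 2 rose, 2 fell and 22 did not pass (median -0.01). Ptgs2, which makes the common precursor, fell as given above, and Ptger4, the EP4 receptor of prostaglandin E, fell too, at 5.90 and 5.41 on the A-C/EBP arrays and 7.01, 6.44, 6.76 and 6.75 on the controls (-1.09 ± 0.20 SE, adjusted p = 0.025). Ptges, the synthase of prostaglandin E, rose, at 9.47 and 9.11 on the A-C/EBP arrays and 8.47, 8.09, 7.92 and 8.21 on the controls (1.12 ± 0.20 SE, adjusted p = 0.0225). Cbr2, a carbonyl reductase, lay at 7.89 and 8.42 on the A-C/EBP arrays and 6.10, 5.99, 5.97 and 6.28 on the controls (2.07 ± 0.22 SE, adjusted p = 0.00268), and its call held without any of the 6 arrays. The calls lost were Ptger4 (without A-C/EBP 2 or differentiated 1, 3 or 4, adjusted p up to 0.272) and Ptges (without A-C/EBP 1 or 2 or differentiated 2 or 4, adjusted p up to 0.121).

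Of 48 barrier lipid genes 2 rose and 1, Elovl4, fell (median 0.02). Acer2, an alkaline ceramidase, lay at 7.34 and 7.78 on the A-C/EBP arrays and 5.80, 5.60, 5.63 and 5.86 on the controls (1.84 ± 0.16 SE, adjusted p = 0.000592), and the call stood without any of the 6 arrays, though its 2 probe sets differed, at 3.80 and -0.12. Asah2, a neutral ceramidase, lay at 6.57 and 7.20 on the A-C/EBP arrays and 6.03, 5.90, 5.75 and 5.94 on the controls (0.98 ± 0.17 SE, adjusted p = 0.0196). Both enzymes split ceramides. Of 29 cholesterol genes Sc5d, a sterol desaturase, rose (0.98 ± 0.15 SE, adjusted p = 0.0107), and Idi1 fell (-0.67 ± 0.10 SE, adjusted p = 0.0142) beside its neighbour Idi2 (median 0.00). Lost calls were Asah2 (without A-C/EBP 2 or differentiated 2, adjusted p up to 0.171), Sc5d (without A-C/EBP 2, adjusted p up to 0.143) and Idi1 (without A-C/EBP 2, adjusted p up to 0.164).

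Cell division genes lay lower as a group, and the controls in turn lay below the undifferentiated cells. Of 67 mitosis genes 65 were below 0, 36 were lower by more than 0.5, 3 fell and 0 rose (median -0.58). Of 49 DNA replication and S phase genes 45 were below 0, 18 by more than 0.5, 3 fell and 1 rose (median -0.46). Over all genes 3.03% were lower by more than 0.5, 0.583% fell and 1.49% rose, and the median was 0.01. The mean level of the mitosis list was 4.95 and 4.90 on the A-C/EBP arrays, 5.77, 5.88, 5.12 and 5.58 on the controls and 7.53 and 7.15 in undifferentiated cells. The groups did not overlap, but differentiated 3 came closest to the A-C/EBP arrays. In bulk RNA fewer dividing cells and less RNA per dividing cell cannot be told apart.

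Ccnb2, cyclin B2, which partners Cdk1 in mitosis, lay at 5.65 and 5.09 on the A-C/EBP arrays and 7.53, 7.54, 6.41 and 7.26 on the controls (-1.82 ± 0.36 SE, adjusted p = 0.0355). Mad2l1, a spindle checkpoint protein, lay at 6.47 and 6.84 on the A-C/EBP arrays and 8.06, 8.20, 7.52 and 7.69 on the controls (-1.21 ± 0.24 SE, adjusted p = 0.0327), and Cks2, a Cdk subunit, at 8.44 and 8.65 on the A-C/EBP arrays and 9.25, 9.66, 9.13 and 9.34 on the controls (-0.80 ± 0.15 SE, adjusted p = 0.0243). Cdk1 itself lay at 6.58 and 6.42 on the A-C/EBP arrays and 8.25, 8.85, 7.19 and 8.13 on the controls (-1.61 ± 0.39 SE, adjusted p = 0.071) and Birc5, survivin, at 5.41 and 5.46 on the A-C/EBP arrays and 7.49, 7.80, 6.07 and 6.99 on the controls (-1.66 ± 0.44 SE, adjusted p = 0.0983), both not called and named after their values were seen. In all 5 genes differentiated 3 was the lowest control and the A-C/EBP arrays were lower still.

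Prim1, the catalytic primase subunit, lay at 6.45 and 6.15 on the A-C/EBP arrays and 7.20, 7.34, 7.07 and 7.04 on the controls (-0.86 ± 0.13 SE, adjusted p = 0.0111). Its partner Prim2 fell by 0.46 log2 units (adjusted p = 0.0299) and Ccne2, cyclin E2, fell by 0.81 (0.0413). E2f2, a transcription factor of S phase, was the exception among these genes and rose, at 7.86 and 8.30 on the A-C/EBP arrays and 6.83, 6.23, 6.89 and 7.04 on the controls (1.34 ± 0.25 SE, adjusted p = 0.0252). Among 41 G1 cyclins, CDK inhibitors and p53 targets (median 0.05) Btg2, an antiproliferative gene, rose (0.86 ± 0.16 SE, adjusted p = 0.0288) and Gadd45g, a stress-induced growth arrest gene, fell (-1.08 ± 0.23 SE, adjusted p = 0.042), while Ccnd1, cyclin D1, differed by -0.45 (0.741). Without A-C/EBP 1 or without A-C/EBP 2 the mitosis list had 0 falls, with medians of -0.64 and -0.55. All of these calls rested in part on single arrays: Ccnb2 (without A-C/EBP 1 or 2 or differentiated 1, 2 or 4, adjusted p up to 0.328), Mad2l1 (without A-C/EBP 1 or 2 or differentiated 1, 2 or 4, adjusted p up to 0.165), Cks2 (without A-C/EBP 1 or 2 or differentiated 4, adjusted p up to 0.126), Prim1 (without A-C/EBP 2, adjusted p up to 0.145), Prim2 (without any single one of the 6 arrays, adjusted p up to 0.294), Ccne2 (without A-C/EBP 1 or 2 or differentiated 1, 2 or 3, adjusted p up to 0.317), E2f2 (without A-C/EBP 2 or differentiated 1, adjusted p up to 0.269), Btg2 (without A-C/EBP 2 or any control, adjusted p up to 0.294) and Gadd45g (without A-C/EBP 1 or 2 or differentiated 1, 2 or 4, adjusted p up to 0.368).

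**Figure D5:**
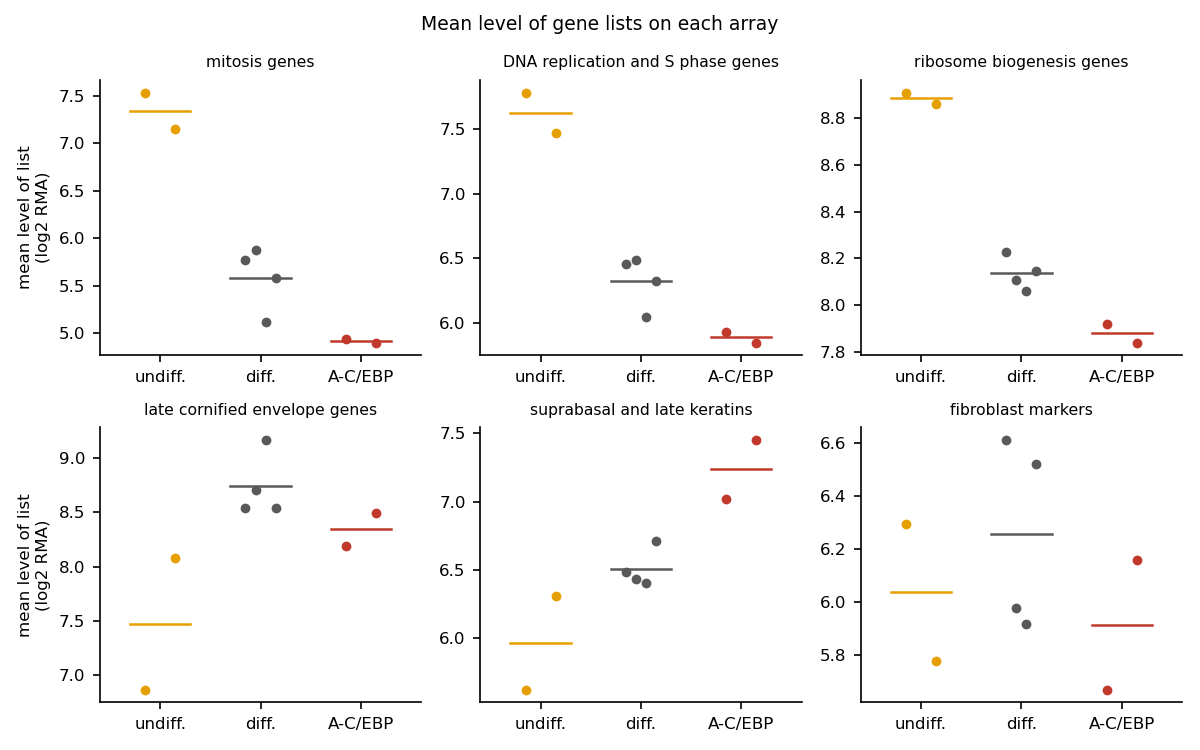
Mean level over the members of 6 gene lists (log2 RMA, vertical axes that do not start at 0) on each undifferentiated (orange), differentiated (grey) and A-C/EBP array (red), with the group mean as a line. Both red points lie below all 4 grey points for mitosis (4.95 and 4.90 against 5.12 to 5.88), S phase and ribosome biogenesis genes, below them for late cornified envelope genes (8.19 and 8.50 against 8.54 to 9.17), above them for suprabasal keratins (7.02 and 7.45 against 6.40 to 6.72), and overlap them for fibroblast markers.

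Of 50 ribosome biogenesis genes 47 were below 0, most by less than 0.5, 5 fell and 0 rose (median -0.23). Among all genes tested 0.583% fell and 1.49% rose, and the median was 0.01. The mean level of the ribosome biogenesis list was 7.92 and 7.84 with A-C/EBP against 8.23, 8.11, 8.06 and 8.15 on the controls. Dkc1, dyskerin, which modifies ribosomal RNA, lay at 6.95 and 7.03 on the A-C/EBP arrays and 8.08, 8.01, 7.65 and 7.57 on the controls (-0.84 ± 0.15 SE, adjusted p = 0.0206). Nop56 and Nop58, of the methylation complex, Nhp2 and Polr1e, a subunit of RNA polymerase I, fell with log2 differences of -0.60, -0.74, -0.59 and -0.56, with adjusted p of 0.0158, 0.021, 0.0298 and 0.0377. The 44 ribosomal protein genes gave 0 calls (median 0.01), with Rpl12 at -0.88 (0.14), Rps20 at 0.35 (0.245) and Rps19 at -0.19 (0.723). Without A-C/EBP 1 the list had 2 falls and without A-C/EBP 2 it had 0, with medians of -0.25 and -0.19. Calls ended for Dkc1 (without A-C/EBP 1 or 2, adjusted p up to 0.153), Nop56 (without A-C/EBP 2, adjusted p up to 0.172), Nop58 (without A-C/EBP 1 or 2 or differentiated 1, adjusted p up to 0.206), Nhp2 (without A-C/EBP 2 or differentiated 1, 3 or 4, adjusted p up to 0.307) and Polr1e (without A-C/EBP 1 or 2 or differentiated 1, 2 or 3, adjusted p up to 0.36).

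Signalling pathways gave few calls. Bmp2, a bone morphogenetic protein, rose among 38 TGF-beta and BMP genes (median -0.03), at 5.16 and 5.86 on the A-C/EBP arrays and 4.42, 4.30, 4.36 and 4.65 on the controls (1.08 ± 0.20 SE, adjusted p = 0.025). Wnt4 rose among 50 Wnt genes (median -0.01), at 10.24 and 10.15 on the A-C/EBP arrays and 9.66, 9.16, 8.63 and 9.07 on the controls (1.06 ± 0.23 SE, adjusted p = 0.0475). Dusp4, a phosphatase that shuts off ERK, fell among 28 EGF receptor genes (median 0.11), at 9.42 and 9.13 on the A-C/EBP arrays and 10.39, 9.86, 10.05 and 10.47 on the controls (-0.92 ± 0.19 SE, adjusted p = 0.042). Bmp2 was dim on every control array. Of 30 Notch genes 0 passed (median 0.03), the ligands Dll1 and Jag2 differing by 1.03 (0.091) and 0.48 (0.137), and Egfr differed by 0.13 (0.668). Lost calls were Bmp2 (without A-C/EBP 2 or differentiated 1, 2 or 3, adjusted p up to 0.234), Wnt4 (without A-C/EBP 1 or 2 or differentiated 2, 3 or 4, adjusted p up to 0.269) and Dusp4 (without A-C/EBP 1 or 2 or differentiated 1, 3 or 4, adjusted p up to 0.368).

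Ion channels and solute transporters of epidermis had 6 rises of 40 and 0 falls (median 0.09), where 1.49% of all genes rose, with 4 rises without A-C/EBP 1, 3 without A-C/EBP 2 and 2 without both arrays that stood apart. After Clca3a2 and Slc1a1 came Atp1b1, the beta subunit of the sodium pump, at 8.55 and 8.85 on the A-C/EBP arrays and 7.51, 7.43, 7.67 and 7.58 on the controls (1.15 ± 0.12 SE, adjusted p = 0.00268), and Ano1, a calcium-activated chloride channel, at 7.30 and 7.52 on the A-C/EBP arrays and 6.43, 6.37, 6.35 and 6.56 on the controls (0.99 ± 0.13 SE, adjusted p = 0.00731). Atp1b1 had 5 probe sets, from -0.15 to 1.80, and without those whose names mark several transcripts its difference turned to -0.15. Slc30a1, a zinc exporter, rose by 0.68 log2 units (adjusted p = 0.0223) and Scnn1a, a subunit of the epithelial sodium channel, by 0.62 (0.042). Atp1b1 passed without any of the 6 arrays, and the others lost their calls thus: Ano1 (without A-C/EBP 2, adjusted p up to 0.0913), Slc30a1 (without A-C/EBP 1 or 2 or differentiated 1 or 2, adjusted p up to 0.206) and Scnn1a (without A-C/EBP 1 or 2 or differentiated 2, 3 or 4, adjusted p up to 0.199).

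Stress and metabolic lists had medians near 0. Of 51 NRF2 and glutathione genes only Gstm5 passed (median 0.03). Akr1c18, given above with the lowest difference of all genes, is of this list, and it passed without A-C/EBP 1 (-5.87) and without A-C/EBP 2 (-1.27). The unfolded protein and integrated stress responses gave 0 of 51 (median 0.06), with Xbp1, a factor of that response, at -0.49 (0.0574) and Slc7a1, an arginine transporter, at 0.48 (0.072). Respiratory chain genes gave 0 of 66 (median -0.01), Ndufa4 differing by 0.41 and Ndufs5 by -0.47. Of 37 glycolysis and hypoxia genes 2 rose (median 0.04): Egln3, an oxygen sensor, at 7.09 and 8.03 on the A-C/EBP arrays and 6.15, 5.78, 5.64 and 6.17 on the controls (1.62 ± 0.26 SE, adjusted p = 0.015), and Ndrg1, induced by low oxygen and differentiation, at 10.21 and 10.88 on the A-C/EBP arrays and 9.37, 9.35, 9.34 and 9.66 on the controls (1.12 ± 0.18 SE, adjusted p = 0.015). Both calls ended without the second A-C/EBP array: Egln3 (without A-C/EBP 2, adjusted p up to 0.139) and Ndrg1 (without A-C/EBP 2, adjusted p up to 0.132).

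Of 43 interferon response genes 1 rose and 2 fell (median -0.01). Rsad2, the antiviral viperin, lay at 6.12 and 6.27 on the A-C/EBP arrays and 4.61, 4.30, 4.67 and 4.78 on the controls (1.60 ± 0.13 SE, adjusted p = 0.000592), a call that held without any of the 6 arrays. Ifitm2 and Isg20, antiviral genes as well, fell with log2 differences of -0.90 (0.0178) and -0.68 (0.0232). Of 35 imprinted genes Mest rose strongly and Trappc9 by 0.40 (0.036), while Peg3, a zinc finger gene expressed from the paternal copy like Mest, fell (median 0.02). Peg3 lay at 6.25 and 5.84 on the A-C/EBP arrays and 7.19, 7.18, 7.38 and 7.18 on the controls (-1.19 ± 0.15 SE, adjusted p = 0.00492), with 5 probe sets from -2.20 to -0.11. Calls ended for Ifitm2 (without A-C/EBP 2 or differentiated 4, adjusted p up to 0.175), Isg20 (without A-C/EBP 2 or differentiated 1, 2 or 4, adjusted p up to 0.257), Trappc9 (without any single one of the 6 arrays, adjusted p up to 0.232) and Peg3 (without A-C/EBP 2, adjusted p up to 0.0585).

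Markers of other cells gave no call in any of the 7 lists, nor did the 10 keratinocyte markers (median 0.23), of which Lgals7 differed by -0.87 (0.121). Fibroblast markers were the list that lay lowest, 16 of 20 below 0 and 9 by more than 0.5 (median -0.41), where 3.03% of all genes were lower by more than 0.5. Col5a1 was at -0.57 (0.359) and Pdgfra at -0.28 (0.293). The mean level of the fibroblast list was 5.67 and 6.16 with A-C/EBP and 6.61, 5.98, 5.92 and 6.52 on the controls, so that the groups overlapped. Its median was -0.13 without A-C/EBP 1 and -0.59 without A-C/EBP 2. Lum, Pdgfra and Mfap5 were below the array median on all 6 arrays. The part of fibroblasts in the falls of Timp3 and other genes they also make was not tested.

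The mean level of melanocyte markers was 7.07 and 7.54 with A-C/EBP against 6.90 to 7.24, with Ednrb at 0.25 (0.381) and Sox10 at 0.22 (0.387). It was 5.21 to 5.31 against 5.10 to 5.31 for immune cells (Cd14 -0.42, Csf1r 0.21), and 7 of those 17 genes, Ptprc among them, were below the array median on all 6 arrays. Endothelial markers lay at 4.30 to 4.41 against 4.29 to 4.42 (Plvap 0.29, Egfl7 0.21), with Pecam1 and Cdh5 among the 6 of 10 below the median. Muscle markers lay at 4.85 to 4.87 against 4.84 to 5.02 (Acta1 -0.61, Ckm 0.14). Adipocyte markers lay at 3.80 to 3.91 against 3.88 to 4.11 (Fabp4 -0.61, Pparg -0.04), with Adipoq and Lep below the median throughout. Hair follicle and sebaceous markers lay at 4.88 to 5.08 against 4.89 to 5.10 (Scd3 -0.57, Dlx3 0.18). The lowest adjusted p among the genes named here was 0.11, for Scd3.

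Dnase1l3, a DNase, lay at 7.40 and 6.03 on the A-C/EBP arrays and 8.10, 7.42, 7.99 and 8.17 on the controls (-1.20 ± 0.33 SE, adjusted p = 0.107), below the controls on A-C/EBP 2 and just under them on A-C/EBP 1. Star, of steroid synthesis, differed by -0.02 and Gapdh, of glycolysis, by 0.0009.

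Genes that passed were sometimes next to each other on the chromosome in RefSeq's gene order. Of 376 such genes with a place, 26 (6.91%) had a neighbour that passed, against 4.06% of all 18144 genes placed. They made 14 adjoining pairs, and both members moved the same way in all 14. Psors1c2 adjoined Cdsn, and Clca3a1 adjoined Clca3a2. St3gal1, a sialyltransferase, adjoined Ndrg1 and lay at 4.80 and 5.76 on the A-C/EBP arrays and 3.80, 3.90, 3.77 and 3.67 on the controls (1.50 ± 0.21 SE, adjusted p = 0.00822). Btg2 adjoined Chit1, a chitinase, at 9.63 and 10.22 on the A-C/EBP arrays and 8.30, 7.99, 8.33 and 8.12 on the controls (1.74 ± 0.16 SE, adjusted p = 0.00122), and Idi1 adjoined Idi2, of similar sequence. Some pairs are near copies whose probe sets may share signal. St3gal1 and Chit1 were named after their values were seen.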

How the data were processed

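Total RNA of 10 keratinocyte samples was hybridized to Affymetrix mouse expression arrays. The authors deposited log2 values made with RMA in Affymetrix Expression Console, 1 per probe set, with versions not given in the sources used here. Of 45101 probe sets, 34958 had 1 gene symbol, 932 several and 9211 none, and those with 1 were averaged to 18194 genes. Differences were tested in limma 3.58.1 (R 4.3.3) with 1 mean per condition over all 10 arrays (6 residual degrees of freedom), two-sided, with Benjamini-Hochberg adjustment over all genes at 0.05, after a check on simulated data. The number of arrays limits the precision. Genes were named as the 15 largest rises and falls without overlap of arrays, up to 6 called members of each of 40 gene lists and 8 marker lists (the 2 of smallest p where none passed) and genes the study names. Others are marked. 1 promoter window is not reported here. Comparison, lists and rules were chosen with earlier results of these data known. Alternatives changed scaling, probe sets, filter, fit, test and arrays. ChIP, A-Fos and methylation experiments were not analysed here.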

Additional observations from a re-analysis of the deposited data

Results flagged for a closer look

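Among the 4 control arrays, 1 array stood far from the other 3 at 10 of the 187 genes named, 5.35%, where chance gives about 1 in 20. Differentiated 3 was the far array for Nlrp10 (4.59, others 5.61 to 5.63), Krt4 (6.43, others 7.82 to 8.07), Ifitm2 (10.72, others 10.97 to 10.99) and Peg3 (7.38, others 7.18 to 7.19). Differentiated 2 was it for Sprr1a (13.6, others 14.3 to 14.3), Cldn4 (11.7, others 12.8 to 12.9), Traf2 (6.71, others 6.79 to 6.79) and Ctso (4.21, others 4.631 to 4.705). Differentiated 4 was it for Clca3a2 (4.30, others 4.04 to 4.08) and Ndrg1 (9.66, others 9.34 to 9.37). Differentiated 1 was it for none of these genes. The distance was toward the A-C/EBP arrays for Clca3a2, Ndrg1 and Ifitm2 and away from them for Nlrp10, Krt4, Peg3, Traf2, Ctso and Sprr1a. Cldn4 differed by 0.1655 with all controls and by -0.13 without differentiated 2, so its far level lay on the side of the A-C/EBP mean. For Sprr1a the far level lay close to the highest probe set of differentiated 2 (13.7).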

How the results depend on the processing

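The counts of genes that passed moved with the arrays and the test more than with the scaling. Against 271 rises and 106 falls, the replicate block gave 504 and 269, differentiated 1 and 2 alone as controls 78 and 42, and differentiated 3 and 4 alone 55 and 25. A two-tailed t-test, which the methods name only in general, was run per gene and gave 0 and 0 after Benjamini-Hochberg adjustment. Unadjusted it gave 1161 and 707, where limma had 2469 genes at an unadjusted p under 0.05. For mRNA changes upon differentiation the methods state a threshold of 0.5 in log2 and no test of single genes. Quantile normalization gave 206 falls (330 rises), and a fit with only the 6 arrays 67 falls (185 rises). Without both arrays that stand apart, A-C/EBP 2 and differentiated 2, an alternative chosen after seeing the data, 31 genes rose and 4 fell. Leaving out 1 array gave 48 to 269 rises, 8 to 142 falls, 623 to 884 genes higher by more than 0.5 and 429 to 987 lower. With a threshold of 1, 140 genes were higher and 127 lower. The groups compared shared only the numbers 1 and 2, whose deviations from the group means had r of 0.26 and 0.40. Over all conditions the 12 pairs of same-numbered arrays had r of 0.093 to 0.43, all above 0 and 11 of them above 0.1, a hint from the data. Arrays with different numbers had r from -0.5632 to 0.5632, the highest between 5-AZA 2 and differentiated 3. Pairs of 2-array groups mirror each other, and no label says what a number shares, so the numbers were not taken as pairs. With the block the log2 differences are those against differentiated 1 and 2, and it ended 13 of the 115 named calls: Spink12, Orm1, Serpina11, Elovl4, Cxcl2, Bpifc, S100g, Scnn1a, Trappc9, Tpp1, Gch1, Hoxb9 and Nfkbie. Of those 115, 113 passed with median centring, 113 with quantile normalization and 31 without A-C/EBP 2.

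Directions turned for these log2 differences. Atp1b1 was -0.1498 without probe sets of several transcripts. Genes that did not pass turned too. With other probe sets these were Ckm (-0.0105), Creb1 (0.2718 and 0.0733), Dsc2 (0.0038) and Dsc3 (0.0697). With the block or differentiated 1 and 2 alone they were Pparg (0.0074), Jun (0.0805), Dsc3 (0.0162), Il1b (0.0208) and Star (0.039), and with differentiated 3 and 4 alone Cldn4 (-0.1108) and Gapdh (-0.0339). Gapdh was -0.0156 with median centring and -0.0542 with quantile normalization or the brightest probe set. Leaving out 1 array gave Pparg -0.2186 to 0.135, Jun -0.2766 to 0.0994, Fos -0.5089 to 0.025, Creb1 -0.2313 to 0.0105, Cldn4 -0.3359 to 0.6668, Il1b -0.2553 to 0.0636, Star -0.0976 to 0.0598, Gapdh -0.1405 to 0.1422, Xist -0.433 to 2.9587 and Eif2s3y -1.8724 to 0.2893. Without both arrays that stand apart Jun was 0.0003, Xist -0.0752 and Eif2s3y 0.2355. The cause was not tested.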

Other observations

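Several groups of genes were noticed after their values were seen, and their counts are a description only. Of 39 measured subunits, inhibitors and regulators of NF-kappaB, the factor that carries inflammatory signals to the nucleus, 10 rose and 0 fell (median 0.23, against 0.01 over all genes and 1.49% of genes that rose). Relb, a subunit of the alternative branch, lay at 7.37 and 7.53 on the A-C/EBP arrays and 6.02, 5.54, 5.74 and 6.66 on the controls (1.46 ± 0.28 SE, adjusted p = 0.0322). Nfkbia, the inhibitor that NF-kappaB itself induces, lay at 10.02 and 10.91 on the A-C/EBP arrays and 9.35, 9.38, 8.93 and 9.21 on the controls (1.25 ± 0.22 SE, adjusted p = 0.0226), and all of its 5 probe sets were higher, by 1.07 to 1.41. The others were Tnip1 (0.93), Nfkbie (0.88), Zc3h12a (0.82), Birc3 (0.80), Tnfaip2 (0.78), Nfkb2 (0.57), Map3k14 (0.49) and Traf2 (0.46). Relb and Nfkb2 lost their calls without differentiated 1, 2 or 3, Zc3h12a without differentiated 2 or 3, and Map3k14 without differentiated 1, 2 or 4. Nfkbia lost its call without differentiated 4, and Birc3, Nfkbie and Traf2 lost theirs on leaving out any 1 control. Birc3 also did not pass with median centring. Without A-C/EBP 1 the list had 5 rises and without A-C/EBP 2 it had 0, with medians of 0.26 and 0.19.

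Of 61 lysosomal hydrolases and membrane proteins 8 rose and 1 fell (median 0.10), where 1.49% of all genes rose and 0.583% fell. It had 2 rises and 1 fall without A-C/EBP 1 and 1 rise and 0 falls without A-C/EBP 2. Slc29a3, a nucleoside carrier of lysosomes, lay at 7.38 and 7.37 on the A-C/EBP arrays and 6.18, 6.11, 5.95 and 6.27 on the controls (1.25 ± 0.11 SE, adjusted p = 0.000699), a call that held without any of the 6 arrays. Grn, progranulin, rose by 0.79 log2 units (adjusted p = 0.0424), Tpp1, a peptidase, by 0.50 (0.0389) and Ctso, cathepsin O, by 0.70 (0.0406). Atp6v1c2, a subunit of the proton pump, fell, at 9.77 and 9.22 on the A-C/EBP arrays and 10.25, 10.42, 10.97 and 10.84 on the controls (-1.13 ± 0.21 SE, adjusted p = 0.0285). Of 20 sialyltransferases the polysialic acid enzymes St8sia2 and St8sia4 and the related St8sia6 fell with log2 differences of -1.59 (0.042), -1.28 (0.00863) and -0.88 (0.0129), whereas St3gal1 rose. Without A-C/EBP 2 that list had 0 falls. Calls of both lists ended for Grn (without A-C/EBP 1 or 2 or differentiated 2, 3 or 4, adjusted p up to 0.198), Tpp1 (without any single one of the 6 arrays, adjusted p up to 0.368), Ctso (without A-C/EBP 1 or 2 or differentiated 1 or 4, adjusted p up to 0.233), Atp6v1c2 (without A-C/EBP 2 or differentiated 4, adjusted p up to 0.298), St8sia2 (without A-C/EBP 2 or any control, adjusted p up to 0.368), St8sia4 (without A-C/EBP 2, adjusted p up to 0.0976) and St8sia6 (without A-C/EBP 2, adjusted p up to 0.139).

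Other genes were named after their values were seen as well. Upp1, uridine phosphorylase, lay at 7.15 and 7.34 on the A-C/EBP arrays and 5.13, 5.39, 4.90 and 4.82 on the controls (2.19 ± 0.18 SE, adjusted p = 0.000497), and Frk, a Src-related kinase, at 7.29 and 7.52 on the A-C/EBP arrays and 5.87, 5.80, 4.81 and 5.21 on the controls (1.98 ± 0.26 SE, adjusted p = 0.00665). Gch1, which starts the synthesis of tetrahydrobiopterin, fell, at 7.40 and 6.81 on the A-C/EBP arrays and 7.95, 7.72, 8.50 and 8.22 on the controls (-0.99 ± 0.21 SE, adjusted p = 0.0483), while Gchfr, its feedback regulator, rose, at 7.90 and 7.33 on the A-C/EBP arrays and 6.06, 5.68, 5.73 and 5.46 on the controls (1.88 ± 0.19 SE, adjusted p = 0.00194). Hoxb6 rose (1.57 ± 0.13 SE, adjusted p = 0.000592) and Hoxb9 of the same cluster fell (-0.89 ± 0.19 SE, adjusted p = 0.042). Hpgds, the prostaglandin D synthase of haematopoietic cells, rose (1.70 ± 0.34 SE, adjusted p = 0.0335). Casp4, an inflammatory caspase, rose (1.27 ± 0.24 SE, adjusted p = 0.0283), as did Nts, neurotensin (1.44 ± 0.17 SE, adjusted p = 0.00372), and Ccn2, a matrix growth factor, fell (-1.26 ± 0.26 SE, adjusted p = 0.042). Upp1, Gchfr, Hoxb6 and Nts passed without any of the 6 arrays, and the other calls ended: Frk (without A-C/EBP 2, adjusted p up to 0.0801), Gch1 (without A-C/EBP 2 or differentiated 1, 3 or 4, adjusted p up to 0.442), Hoxb9 (without A-C/EBP 2 or differentiated 2, 3 or 4, adjusted p up to 0.402), Hpgds (without A-C/EBP 1 or 2 or differentiated 1, 2 or 4, adjusted p up to 0.306), Casp4 (without A-C/EBP 2 or differentiated 1, 2 or 4, adjusted p up to 0.0989) and Ccn2 (without A-C/EBP 1 or 2 or differentiated 1, 3 or 4, adjusted p up to 0.294).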
